A study of Drosophila melanogaster with 2 samples.

Results

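The 10 attacin, cecropin and diptericin genes AttA, AttB, AttC, AttD, CecA1, CecA2, CecB, CecC, DptA and DptB were followed in whole larvae with and without damage to the wing imaginal disc, the larval tissue from which the wing forms. They were chosen by name, through the CG number of the transcript printed on the array, and they are 10 of the 13137 genes with a probe. Each was represented by 1 probe, printed once. Total RNA of female larvae in the last (3rd) instar was hybridised to 2 arrays of oligonucleotide probes, with the RNA of ablated and control larvae labelled in different dyes on the same array. Ablated larvae had the genotype rnGAL4,UASegr,tubGAL80[ts]/+, in which the rotund driver expresses eiger, the fly's tumour necrosis factor, in the disc pouch and so kills cells there. Control larvae had the genotype TM6,Tb[1],tubGAL80, a balancer of chromosome 3 marked with Tubby, with no driver or eiger transgene listed. A tubulin-driven GAL80, the repressor of GAL4, is in both genotypes and is marked as temperature-sensitive for the ablated larvae alone. The design gives 24 h at 30 °C for both and the array titles give day 6. The labels give Cy5 as the dye of the ablated larvae on replicate 1 and Cy3 on replicate 2, with the other dye for the controls. How many larvae were pooled, and whether the replicates are separate cultures, is not stated in the labels. A p-value here therefore measures the spread between these arrays alone, which may be technical.

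Attacins, cecropins and diptericins are small secreted peptides that kill bacteria, mainly Gram-negative ones. In flies the fat body makes most of them during infection, and blood cells, gut and other epithelia add to the supply. Their genes are controlled mainly by the immune deficiency pathway, in which bacterial peptidoglycan binds the receptor PGRP-LC or PGRP-LE, the adaptor imd passes the signal on through Tak1 and the IKK complex, and the NF-kappa-B factor Rel enters the nucleus. AttA and AttB are near-identical neighbouring copies on chromosome arm 2R, with Dro (drosocin) as the next coding gene on the side of AttA. DptA and DptB are also neighbours on 2R, and AttC lies alone there. The 4 cecropin genes follow each other on arm 3R, next to Anp (andropin, a male-specific peptide), and AttD lies elsewhere on 3R. CecA1 and CecA2 encode the same peptide. These neighbours were read from the RefSeq table of the Release 6 assembly. Ablated and control larvae differed in genotype on both arrays. For every gene, a difference made by genotype therefore cannot be told apart from a difference made by ablation. For AttD and the cecropins, on 3R, this includes a difference between the balancer and the driver chromosome itself.

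The precision was limited by the number of arrays and by their brightness. A spot counted as above background where its median lay more than 2 SD of the surrounding background over the background median. Of 14785 gene spots, this held for 38.1% (ablated) and 26.9% (control) on replicate 1 and for 17.6% and 15.0% on replicate 2. The scanner gains also differed, at 540 (Cy5) and 600 (Cy3) on replicate 1 against 630 and 540 on replicate 2, so intensities are not compared across arrays. Across the 5947 genes above background in at least 1 channel, the log2 ratios of ablated over control larvae ran against each other on the arrays (Pearson's r = -0.53, across genes, which are not independent replicates). By ranks the relation was weaker (Spearman's rho = -0.23). Directions are therefore unsettled. They are given as the labelled dyes set them, and below also with the sign of replicate 2 turned. As a yardstick of error within an array, 12 probes printed 17 times had log2 ratios whose SD between copies was 0.18 (median over probes) on replicate 1 and 0.19 on replicate 2. The probes for egr (eiger) and Tb were above background in 0 of their 4 channels each, so neither checks the labels.

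Of 40 member channels, 17 were above background. The number of the 10 members above background was 7 in ablated and 4 in control larvae on replicate 1, and 2 in ablated and 4 in control larvae on replicate 2. AttA and CecA1 were above background in all 4 channels. CecA2, CecB and DptB were above background in none. No member spot held saturated pixels.

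**Figure D1:**
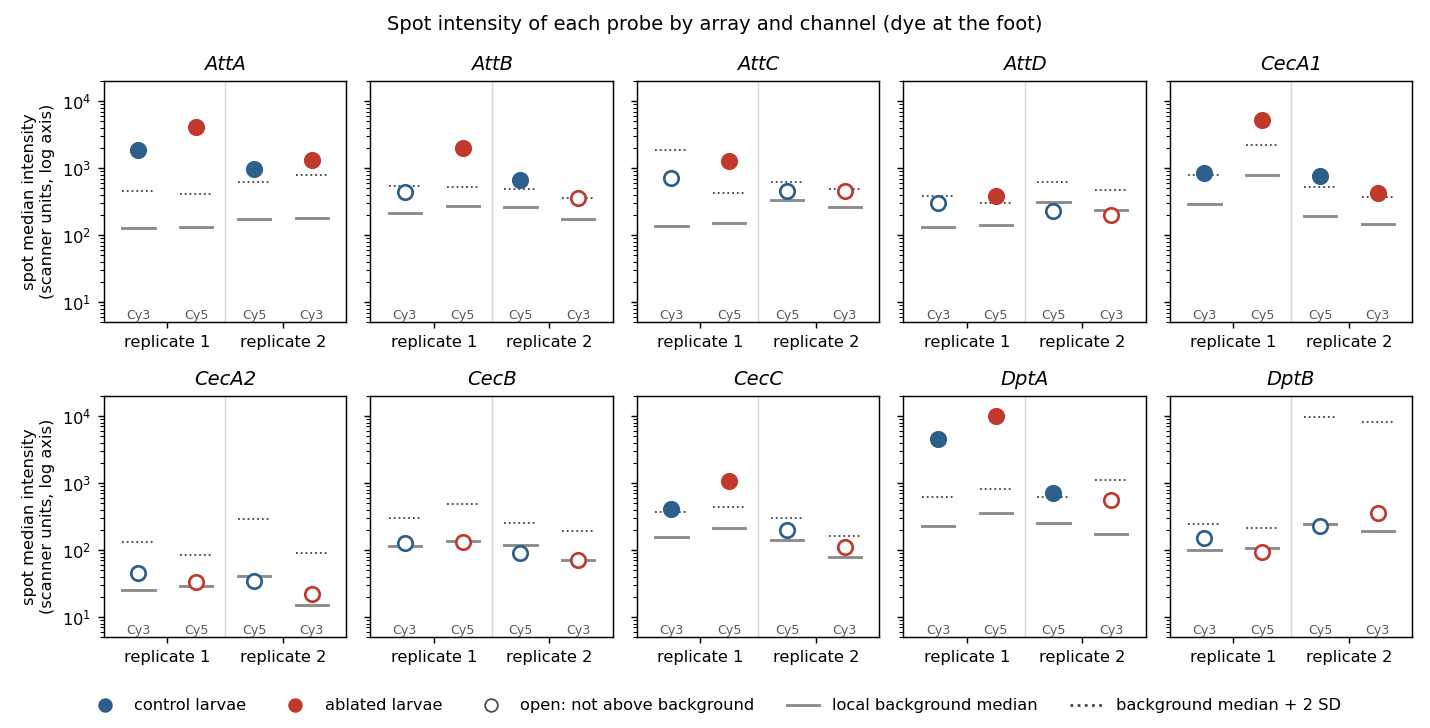
Spot median intensity (scanner units, log axis) of each probe in the 4 channels, with the dye at the foot, control larvae in blue and ablated larvae in red. Grey bars are the local background median, dotted bars that median plus 2 SD, and open points are not above background. AttA and CecA1 are filled in all 4 channels, and CecA2, CecB and DptB are open in all 4.

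AttA, a glycine-rich attacin, read higher in ablated larvae on both arrays. Its signal over local background was 4032 in ablated and 1772 in control larvae on replicate 1, and 1162 and 801 on replicate 2. Before normalization the ablated channel was the brighter one within each array, although the dyes were exchanged. The median signal over all gene spots was also higher in the ablated channel. It was 96 against 93 on replicate 1 and 10 against 1 on replicate 2, so this order is not particular to AttA. After loess normalization the log2 ratio of AttA was 0.45 on replicate 1 and 0.34 on replicate 2, a mean of 0.39 ± 0.0721 (SD, n = 2), or 1.31-fold. Both ratios exceeded the SD between copies of a probe, but AttA did not pass limma over all genes tested (adjusted p = 0.996; unadjusted p = 0.140). In RNA from whole larvae, more cells of a type and more RNA per cell cannot be told apart.

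AttC, an attacin from a separate locus, also read higher in ablated larvae on both arrays, by less. Its signal over background was 1130 in ablated and 570 in control larvae on replicate 1. On replicate 2 it was 183 in ablated and 124 in control larvae. The log2 ratios were 0.25 and 0.17, with a mean of 0.21 ± 0.0548 (SD, n = 2; limma adjusted p = 0.996), close to the SD between copies. Only the ablated channel of replicate 1 was above background, so AttC passed the filter through the group in which it read higher. In the control channel of replicate 1 the local background had an SD of 854, against a median of 163 over all gene spots. With that median as the SD, this control channel was above background. Since neither control signal reached background plus 2 SD of the local background, a bound was computed from the lowest signals above background. It equalled the measured 1.16-fold in ablated over control larvae and is therefore no minimum.

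AttD, an attacin whose predicted product lacks a secretion signal, gave little to compare. Its signal over background was 240 in ablated and 173 in control larvae on replicate 1. On replicate 2 it was -38 in ablated and -81 in control larvae, both below local background. Only the ablated channel of replicate 1 was above background, and no fold could be bounded. The log2 ratios after normexp, which keeps such spots positive, were 0.0304 and 0.16.

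AttB, CecA1, CecC and DptA behaved differently from AttA and AttC: each read higher in ablated larvae on replicate 1 and lower on replicate 2. In all 4 the Cy5 channel was therefore the brighter one on both arrays, whichever larvae it held. The shift was largest for CecA1, a cecropin, which forms amphipathic helices that disrupt bacterial membranes. Its signal over background was 4455 in ablated and 563 in control larvae on replicate 1. On replicate 2 it was 275 in ablated and 562 in control larvae. All 4 channels were above background, and the log2 ratios were 2.01 and -0.77, a mean of 0.62 ± 1.96 (SD, n = 2; limma adjusted p = 0.996). The local background around the CecA1 spot on replicate 1 was 794 in Cy5, against a median of 154 over all gene spots in that channel.

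AttB gave a near copy of this pattern. Its signal over background was 1743 in ablated and 219 in control larvae on replicate 1, and 182 and 407 on replicate 2. The Cy5 channel alone was above background on each array. The log2 ratios were 1.74 and -0.75, a mean of 0.50 ± 1.76 (SD, n = 2; limma adjusted p = 0.996). Between the arrays AttB moved by 2.50 and CecA1 by 2.78 on the log2 scale. At least as large a difference was seen in 5.94% and 4.84% of the 5947 genes tested, where the median absolute difference was 0.40. AttA, its near-identical neighbour, differed by 0.10. The sources used here do not give the probe sequences, so whether the AttA and AttB probes tell these copies apart is not known, and their separate values are uncertain.

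CecC and DptA showed the same order with smaller ratios. CecC, a cecropin known for its expression in early pupae, had a signal over background of 857 in ablated and 257 in control larvae on replicate 1, and 32 and 61 on replicate 2, where neither channel was above background. Its log2 ratios were 0.78 and -0.22, a mean of 0.28 ± 0.71 (SD, n = 2; limma adjusted p = 0.996). DptA, the diptericin commonly used as a readout of the immune deficiency pathway, had 9802 in ablated and 4261 in control larvae on replicate 1, and 379 and 454 on replicate 2. Its ablated channel on replicate 2 was not above background, with a local background SD of 476 there. The log2 ratios were 0.49 and -0.26, a mean of 0.11 ± 0.53 (SD, n = 2; limma adjusted p = 0.996). For each of these 4 genes the SD between arrays exceeded the mean.

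AttB, CecA1 and CecC, and also CecB, were printed from the same source plate, numbered 32 in the files. AttA, AttC, AttD, CecA2, DptA and DptB each came from another plate. On plate 32 the Cy5 channel was brighter on both arrays for 23.5% of 200 probes above background, against 27.1% of all such probes. The part of the plate in the ratios was not tested. Over genes, this order held for 27.0% of the 5947 tested and for 4 of the 7 tested members.

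**Figure D2:**
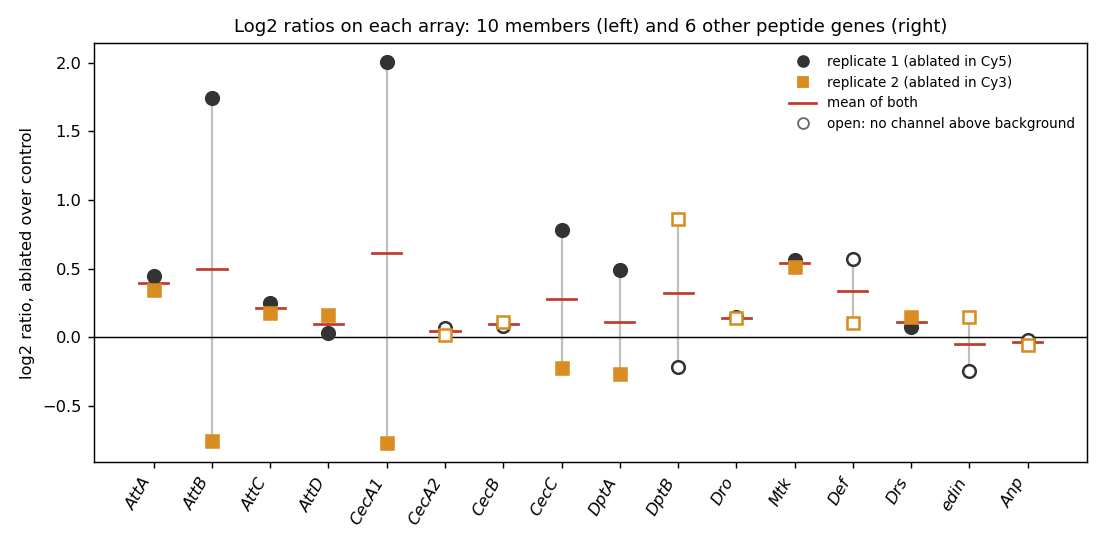
Log2 ratio of ablated over control larvae on replicate 1 (circles) and replicate 2 (squares) for the 10 members and, to the right, 6 other peptide genes. Red bars are the mean of both arrays, and open symbols mark genes with no channel above background. AttA and AttC lie above 0 on both arrays, while AttB and CecA1 lie at 1.74 and 2.01 on replicate 1 and at -0.75 and -0.77 on replicate 2.

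The remaining members gave no measurable level. CecA2 had signals over background of 4 (ablated) and 21 (control) on replicate 1 and 7 (ablated) and -7 (control) on replicate 2. CecB had -3 and 12 on replicate 1 and 0 and -29 on replicate 2, in the same order. DptB, the neighbour of DptA, had -15 and 50 on replicate 1 and 165 and -16 on replicate 2. On replicate 2 the local background of the DptB spot had an SD of 4653 in Cy5 and 3977 in Cy3, against medians of 164 and 146 over all gene spots. A spot median of more than 9554 in Cy5 or 8148 in Cy3 would have been needed to count as above background. The normexp log2 ratios of DptB, -0.22 and 0.86, rest on such signals. Those of CecA2 and CecB lay between 0.0189 and 0.11. For these 3 genes a difference was not detectable, which does not show that there was none.

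Counted over families, 3 of 4 attacins, 2 of 4 cecropins and 0 of 2 diptericins read higher in ablated larvae on both arrays, 5 of 10 members in all against 23.0% of the 13137 genes on the array. The 2 cecropins among them, CecA2 and CecB, were above background in no channel. AttD, also among them, had both signals on replicate 2 below local background. Of the 5, only AttA and AttC had positive signals over background in every channel. No member read lower on both arrays, against 23.2% of all genes, and 5 members ran in opposite directions, against 53.8%. With the sign of replicate 2 turned, 4 other members (AttB, CecA1, CecC and DptA) read higher on both arrays, against 26.7% of all genes, and DptB read lower, against 27.1%. The median log2 ratio of the 10 members was 0.35 on replicate 1 and 0.0656 on replicate 2. The median of their means was 0.25, beside -0.00195 for all genes. For the 7 tested members the median was 0.49 on replicate 1 and -0.22 on replicate 2. For all tested genes it was 0.0162 and 0.00569. The number of members tested was 7, of which AttC and AttD passed the filter through ablated larvae alone. Of the tested members 0 passed limma at an adjusted p of 0.05, as did 0 (0%) of the 5947 genes tested. At an unadjusted p under 0.05 there were 0 members and 144 genes (2.42%). The separate-channel model also called 0 members.

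**Figure D3:**
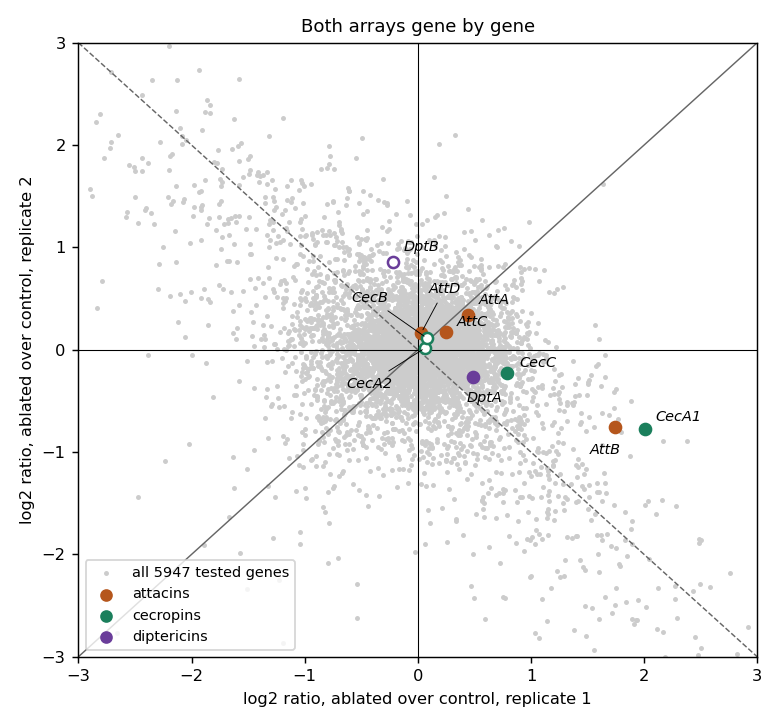
Log2 ratio of ablated over control larvae on replicate 1 (horizontal) against replicate 2 (vertical) for the 5947 tested genes (grey) and the 10 members (open where no channel was above background). The solid diagonal is equal ratios and the dashed one opposite ratios, and 56 genes beyond 3 log2 units on an axis are not drawn. AttA and AttC lie near the solid line, and AttB, CecA1, CecC and DptA lie to the lower right.

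Read with the sign of replicate 2 turned, the order of the members was another one. By the labelled dyes, every ratio is then Cy5 over Cy3 on both arrays. Group and dye therefore cannot be told apart in this reading, whatever its p-values. CecA1 then averaged 1.39 (limma adjusted p = 0.000862) and AttB 1.25 (limma adjusted p = 0.00390), the only 2 of the 7 tested members to pass, in a reading in which 8.63% of the 5947 genes passed. CecC averaged 0.50 (limma adjusted p = 0.679) and DptA 0.38 (limma adjusted p = 0.963). AttA and AttC, whose ratios were alike on the arrays as labelled, averaged 0.0510 and 0.0388 when turned, and AttD -0.0669. The columns of the authors' deposited table follow the labelled dyes.

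AttA, AttC, AttB, CecA1, CecC and DptA kept the order of the arrays over 8 processing alternatives that can change a ratio. Of these members, only AttA and CecA1 were above background in all channels. AttA and AttC were higher in ablated larvae on both arrays under all 8, although AttA stood at 0.0785 on replicate 2 with print-tip loess and AttC to 0.0155 there with the mean of the spot pixels. AttB, CecA1, CecC and DptA were higher on replicate 1 and lower on replicate 2 under all 8. Over these, CecA1 ranged from 1.95 to 2.99 on replicate 1 and from -1.17 to -0.69 on replicate 2. AttB ranged from 1.58 to 3.00 and from -1.30 to -0.68. AttD changed order with the setting. In the authors' deposited table its ratio was 0.475 on replicate 1 and -1.092 on replicate 2, and the second value equals the log2 quotient of both negative signals given above (-1.09). The authors' deposited table gives AttA as 1.186 and 0.537 and AttC as 0.987 and 0.554, with column medians of 0.487 and -0.115.

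**Figure D4:**
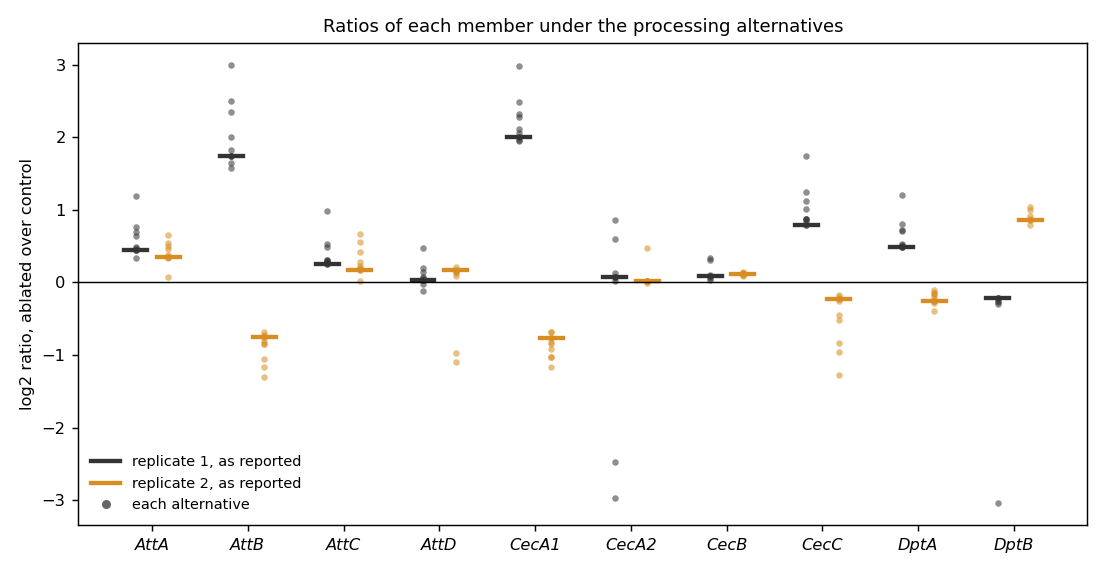
Log2 ratio of ablated over control larvae for each member on replicate 1 (dark) and replicate 2 (orange). Thick bars are the reported values and small points the values under each processing alternative, including 2 that leave single-probe ratios as they are. AttB, CecA1, CecC and DptA keep opposite signs on the arrays throughout, and the low points of CecA2 and DptB come from probes not above background.

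Among 6 further peptide genes, 4 read higher and 1 lower in ablated larvae on both arrays, against 23.0% and 23.2% of all genes. With the sign of replicate 2 turned, 0 read higher and 1 lower. Only Mtk and Drs had a channel above background. Mtk (metchnikowin, a proline-rich antifungal peptide) read higher in ablated larvae on both arrays, as AttA did. Its signal over background was 595 in ablated and 218 in control larvae on replicate 1, and 535 and 286 on replicate 2. Unlike for AttA, the control channel of Mtk on replicate 1 was not above background. The log2 ratios were 0.56 and 0.51, a mean of 0.54 ± 0.0361 (SD, n = 2; limma adjusted p = 0.996), and 0.0255 when turned. Drs (drosomycin, a target mainly of the Toll pathway) was above background only in ablated larvae on replicate 2, with ratios of 0.0753 and 0.15. Dro, the neighbour of AttA, read 0.15 and 0.14 and Def (defensin) 0.57 and 0.10, both with no channel above background. The same was true of edin, an infection-induced peptide gene, at -0.24 and 0.15, and of Anp at -0.0164 and -0.0531.

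Receptors, adaptors, kinases and inhibitors of the immune deficiency pathway gave no call. Of 25 listed genes, 24 were matched to a probe by symbol and 14 were tested, and 0 passed limma in either direction (0% of all genes tested), with 2 at an unadjusted p under 0.05. On both arrays 3 of the 24 read higher and 8 lower in ablated larvae, against 23.0% and 23.2% of all genes. With the sign of replicate 2 turned, 8 read higher and 5 lower, against 26.7% and 27.1%. The list median as labelled was -0.0618. The smallest p values as labelled belonged to IKKbeta, the kinase subunit of the IKK complex, with log2 ratios of -1.22 and -2.25, and PGRP-LC, the membrane receptor, with -0.99 and -0.77. For IKKbeta, neither group was above background on replicate 1, where the local background had an SD of 10567 (ablated) and 13754 (control) beside signals over background of 2951 and 4434. On replicate 2 the control was above background, at 2652, and the ablated larvae, at 449, were not. The same held for PGRP-LC on replicate 2, with the control at 453 and the ablated larvae at 206. The local background of that ablated channel had an SD of 652. Tab2, the partner of the kinase Tak1, followed with -0.68 and -0.44, and imd with -0.77 and -0.37. On replicate 2 both signals of Tab2 (-236 in ablated and -153 in control larvae) and of imd (-167 and -117) were below local background, so their second ratios rest on no measured level. These 4 genes had limma adjusted p = 0.996. With the sign of replicate 2 turned, IKKbeta averaged 0.51, PGRP-LC -0.11, Tab2 -0.12 and imd -0.20, none past the threshold. Rel, the transcription factor that drives these peptides, read 0.15 and 0.0668 (limma adjusted p = 0.996), and was above background in both groups on replicate 1, with both signals below local background on replicate 2. Genotype and ablation cannot be told apart for any of these genes. IKKbeta, Rel and PGRP-LC also lie on chromosome 3, as the balancer does. Among feedback inhibitors, pirk read -0.16 and 0.29 and PGRP-LB 0.27 and -0.29, with opposite signs on the arrays. Both were picked after their values were seen, and other listed inhibitors are not described here. For pirk only the ablated channel of replicate 1 was above background, and for PGRP-LB only the channels of replicate 2.

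**Figure D5:**
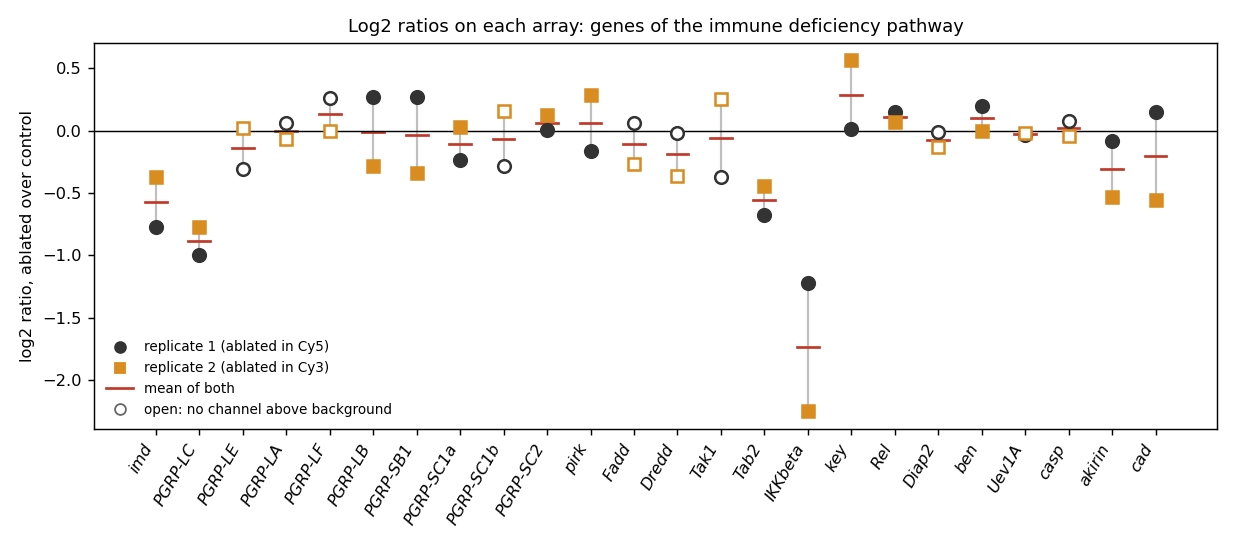
Log2 ratio of ablated over control larvae on replicate 1 (circles) and replicate 2 (squares) for 24 genes of the immune deficiency pathway, with the mean of both as a red bar and open symbols where no channel was above background. As labelled, IKKbeta, PGRP-LC, imd and Tab2 lie below 0 on both arrays and Rel above it by 0.15 and 0.0668. However, the replicate 2 signals of imd, Tab2 and Rel were below local background. The ablated channels of IKKbeta and PGRP-LC on replicate 2 were not above background either.

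Markers of the fat body were present: of 8, the number above background was 6 (ablated) and 3 (control) on replicate 1 and 6 in each group on replicate 2. Before normalization, their summed signal over background was 28882 in ablated and 23171 in control larvae on replicate 1, and 14370 and 11686 on replicate 2. Their median log2 ratio was -0.0451 on replicate 1 and -0.0499 on replicate 2, with 1 marker higher and 3 lower on both arrays (2 and 2 with the sign of replicate 2 turned). Of 11 blood cell markers, the number above background was 5 and 3 on replicate 1 and 1 and 1 on replicate 2, with Hml, NimC1, He, Ppn, PPO1 and PPO2 above background in no channel. Their summed signal, also before normalization, was 14526 in ablated and 8226 in control larvae on replicate 1, and 1481 and 1409 on replicate 2. Their median log2 ratio was 0.0623 and 0.0195, with 5 higher and 3 lower on both arrays (2 and 1 when turned), against 23.0% and 23.2% of all genes as labelled and 26.7% and 27.1% when turned. The summed signals were not corrected for channel brightness, and the median signal over all gene spots was also higher in the ablated channel. The part of either cell type in the peptide ratios was not tested.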

How the data were processed

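Per the file headers, spots were quantified in GenePix Pro 7.1.25. The deposited spot and local background values are intensity medians and means with background SDs, and the deposited percent columns give pixels above background and saturated. The authors' deposited table holds log2 ratios. Set against scanner quotients, its columns run as ablated over control (r = 0.999 with Cy5 over Cy3 on replicate 1, r = -0.999 on replicate 2) and are not centred; further steps are not given in the sources used here. No column of unassigned samples was used.

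Here, intensities were background-corrected by normexp (offset 50) and loess-normalized within arrays (limma 3.58.1, R 4.3.3), with non-gene spots at weight 0. Copies of a probe were averaged and the brightest probe stood for a gene. Names were matched through RefSeq locus tags (12687 probes) or synonyms (1218), and 688 probes kept the name in the file. Genes above background in at least 1 channel entered a two-sided lmFit and eBayes test of both ratios against 0, with Benjamini-Hochberg adjustment over all of them. The pipeline was tested on simulated arrays that shared the same ratios, with the changed genes among bright spots. The measured arrays ran against each other and were mostly dim, so that test does not cover them. Named are all members, the pathway genes with the 4 smallest p, Rel, imd and 6 other peptide genes, and pirk and PGRP-LB, which were chosen after their values were seen. Members and lists were chosen with earlier results of these data known. Bounds used channel values after Aquantile. The temperatures given for GAL80 in the treatment text run opposite to the design text, which was followed.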

Additional observations from a re-analysis of the deposited data

How the results depend on the processing

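The test of within-array ratios against 0 is itself paired by array, so no further replicate block was fitted. The count of members past the threshold was 0 under every alternative run except the turned sign of replicate 2, at 2 (AttB 1.25 and CecA1 1.39), where 513 genes passed. With that sign turned, group and dye cannot be told apart. The member median of 0.25 became 0.62 in the authors' uncentred values and 0.0449 with the sign turned, and lay between 0.0656 and 0.35 with either array left out. Members higher on both arrays numbered 2 with plain background subtraction, 3 with the mean of the spot pixels, and 2 in the authors' values as they stand or centred, where spots without a ratio drop out. With the sign turned they numbered 4, none of them among the 5 as labelled. Members lower on both numbered 1 in the centred values and 1 with the sign turned. The pathway median of -0.0618 was -0.11 with plain subtraction, -0.0123 without background correction, -0.0321 with the mean of pixels, 0.22 and 0.0325 in the authors' values as they stand and centred, 0.0493 with the sign turned and between -0.0558 and -0.0167 with an array left out. AttD reversed to -0.31 and -0.50 in the authors' values as they stand and centred and to -0.0669 with the sign turned, and CecC to -0.0773 with plain subtraction. On replicate 2 alone AttB was -0.75, CecA1 -0.77, CecC -0.22 and DptA -0.26, and on replicate 1 alone they were 1.74, 2.01, 0.78 and 0.49. The cause of these changes was not tested. The stricter filter, above background on each array, left 4 members to test. The filter with the background SD of the whole array was added after seeing the data. It kept 7 members and called 0. By that SD the AttC control channel of replicate 1 and the DptA ablated channel of replicate 2 were above background. The CecA1 ablated channel of replicate 2 and the CecC control channel of replicate 1 were then not. Most gene spots on replicate 2 were not above background, which limits their values there.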

Other observations

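The value of AttD on replicate 2 in the authors' deposited table is 1 of many quotients of background-subtracted signals that were both below 0. Among gene spots with a ratio in that table, 1818 of 12098 on replicate 1 and 5633 of 12520 on replicate 2 had both signals below local background. Such a ratio carries a sign and a size but no measured level in either channel. In the same table CecA2 has -2.473 on replicate 1, near the -2.39 that the quotient of its whole-number scanner signals over background (4 and 21) gives, and CecB and DptB have no value on either array.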
